A study of Mus musculus with 25 samples.

Results

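The Reg genes encode small secreted C-type lectins, and 5 of them were followed here across 25 libraries of mouse jejunum: Reg1, Reg3a, Reg3b, Reg3g and Reg4. They were chosen by symbol, and all 5 were found once each among the 57132 genes of the deposited table, in which 35723 genes had a count in at least 1 library. The table also lists Reg2 and Reg3d, which are named below only where they bear on the members. Messenger RNA was measured in 5 groups of 5 libraries. The control pups were suckled normally and were taken at postnatal day 21. The other 4 groups were separated from the dam early, at day 15. One of them, EW, had no supplement. EW+HMOs received a pair of human milk oligosaccharides, 2'-fucosyllactose with lacto-N-neotetraose, of which EW+2'-FL received just the former and EW+LNnT just the latter. All pups were assigned at day 14. The sources used here give no strain, sex, litter or dose, nor the sampling day of the early-weaned pups, so a difference in age from the controls was not tested. Nothing in the labels ties each library to its own animal, and p-values measure the spread between these samples only, which may be technical. Libraries are named by group and number, as Control1, Weaned1 (EW), HMOs1, FL1 and LNnT1.

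Reg3b and Reg3g are made by enterocytes and Paneth cells of the small intestine. Reg3g binds peptidoglycan and kills Gram-positive bacteria, and in mice it keeps bacteria away from the mucosal surface. Signals from microbes through MyD88, and interleukin-22 acting through its epithelial receptor and the transcription factor STAT3, are known to switch on both genes. Reg1 and Reg2 were first described in the pancreas, Reg4 is known from enteroendocrine and secretory cells of the gut, and Reg3a is the mouse gene that carries the name of the human lectin REG3A.

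In these libraries Reg3b and Reg3g were far higher in every early-weaned group than in suckling controls, while the group means of Reg1, Reg3a and Reg4 lay at or below the control mean. Mean Reg3b rose 23.8-fold and mean Reg3g 22.8-fold from control to EW. The highest levels of both were in EW+HMOs and EW+2'-FL, at 2.30 to 3.41 times EW, but these further differences did not pass the test. In bulk tissue, fewer cells of a type and less RNA per cell cannot be told apart, and this holds for every value given here.

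Libraries held between 58732979 (LNnT1) and 89589183 counts (Weaned4). FL1, LNnT1 and LNnT2 stood apart on the first principal component, which held 22.4% of the variance. Transcripts of pancreatic acinar cells (14 marker genes) took 0.101% to 1.26% of the counts in 6 libraries (Control2, Control3, Weaned1, FL5, LNnT1 and LNnT2) and at most 0.00184% in any other. The jejunal origin was checked on 10 enterocyte markers, among them the fatty acid binding proteins Fabp1 and Fabp2 and the disaccharidases Lct and Sis, and all 10 were detected in every library, at 3.51% to 8.82% of the counts. Xist with almost no Y-linked transcripts (at most 2.76e-05% of counts, in Weaned3) marked 11 libraries, 4 of them controls. Y-linked transcripts with almost no Xist (at most 0.000122%, in Weaned4) marked 13, all early-weaned (EW 4, EW+HMOs 3, EW+2'-FL 4 and EW+LNnT 2). Control2 held both.

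Of the 7 Reg genes, all but Reg4 form a cluster on chromosome 6. On GRCm39, the build of the deposited files, Reg3b lies at chr6:78347640-78350449 on the plus strand, Reg3a at chr6:78357692-78360810 on the plus strand, Reg1 at chr6:78399694-78405650 on the plus strand and Reg3g at chr6:78443252-78445855 on the minus strand. Reg3d and Reg2 lie between Reg3b and Reg1, and Reg4 is apart from the cluster at chr3:98129472-98144064 on the plus strand. The promoters of Reg3b, Reg3g and Reg3a are shown because the first 2 moved together in these libraries and the third, which lies between them, did not. Each window runs from 250 bases before the annotated gene start to 50 bases after it, from RefSeq on GRCm38.p6, a different build from that of the files, and reads 5′ to 3′ on the gene's own strand. Reg3b is at chr6:78370635-78370934 (plus strand), Reg3g at chr6:78468825-78469124 (minus strand) and Reg3a at chr6:78380459-78380758 (plus strand). Capitals mark matches to 3 motifs searched on both strands, the STAT-type palindrome TTCNNNGAA, the TATA box TATAAA and the AP-1 motif TGANTCA.
Reg3b: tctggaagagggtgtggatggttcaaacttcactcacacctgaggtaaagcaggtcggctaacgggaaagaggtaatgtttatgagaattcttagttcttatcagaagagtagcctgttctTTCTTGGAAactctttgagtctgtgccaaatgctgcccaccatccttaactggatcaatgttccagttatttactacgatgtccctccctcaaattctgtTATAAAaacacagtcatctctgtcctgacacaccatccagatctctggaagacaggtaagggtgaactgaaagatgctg
Reg3g: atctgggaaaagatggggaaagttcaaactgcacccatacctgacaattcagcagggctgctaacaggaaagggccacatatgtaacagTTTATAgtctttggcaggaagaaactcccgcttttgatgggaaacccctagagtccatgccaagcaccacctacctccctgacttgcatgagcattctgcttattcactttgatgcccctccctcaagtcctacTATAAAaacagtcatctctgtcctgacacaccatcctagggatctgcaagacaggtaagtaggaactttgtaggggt
Reg3a: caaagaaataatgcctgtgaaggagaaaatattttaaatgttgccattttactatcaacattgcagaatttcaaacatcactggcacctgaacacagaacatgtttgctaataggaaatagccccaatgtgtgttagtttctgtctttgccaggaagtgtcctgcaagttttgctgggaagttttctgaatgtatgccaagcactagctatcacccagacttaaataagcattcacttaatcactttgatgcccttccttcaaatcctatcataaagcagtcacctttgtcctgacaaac
The Reg3b window held a STAT-type match, TTCTTGGAA, 129 bases before the gene start and a TATA box 29 bases before it. In Reg3g a TATA box stood 27 bases and a match on the other strand 161 bases before the start, with no match to the STAT-type motif. Reg3a held none of the 3 motifs. The TATA box was not particular to the 2 genes that rose. Of the windows not shown, Reg1 and Reg2 each held a TATA box 30 bases before the start. Reg1 also held an AP-1 match 117 bases before the start and a TATA match on the other strand 35 bases after it. Reg1 was not called higher in any group, and the Reg4 window held no match. In Reg3d, which lies between Reg3b and Reg3a and whose window is not shown, a STAT-type match stood 238 bases before the start. Reg3d, at a mean of 1.58 CPM in control and 2.47 CPM in EW, was not called (log2 change 0.64, edgeR adjusted p = 0.805). The windows of Reg3b and Reg3g were 69.9% identical over 296 aligned bases, those of Reg3a and Reg3g 73.7% over 243, and those of Reg3a and Reg3b 68.2% over 236. Among 32817 mouse promoters of the same length, 8.29% held the STAT-type motif, 13.6% the TATA box and 7.81% the AP-1 motif. A match describes letters in these windows and is not evidence of binding.

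Levels of different genes were set side by side in FPKM, the deposited unit per gene length. In the suckling jejunum Reg1 was the most abundant member, at 859 ± 176 FPKM (mean ± SD, n = 5). Reg4 (104 ± 22.6 FPKM), Reg3a (92.8 ± 17.0) and Reg3b (86.5 ± 48.5) followed within one another's spread, and Reg3g was lowest, at 10.7 ± 5.49 FPKM. After early weaning the order changed. Mean Reg3b reached 2019 ± 1323 FPKM in EW, above Reg1 (496 ± 150), Reg3g (241 ± 159), Reg4 (82.9 ± 17.5) and Reg3a (48.2 ± 28.6). In EW+HMOs Reg3b stood at 4434 ± 1271 FPKM and Reg3g at 774 ± 331, beside 698 ± 296 for Reg1. By count, Reg3b was among the most abundant genes of the tissue there. It took 0.358% to 0.706% of all counts in EW+HMOs and 0.0811% to 0.942% in EW+2'-FL, where it ranked as high as the 4th gene by count, against 0.00380% to 0.0167% in control.

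The FPKM of Reg3g rest on a long gene length. The length implied by the ratio of counts to FPKM was 2264 bases for Reg3g, against 771 bases for its longest coding transcript in GENCODE M21, a ratio of 2.94; the annotation also lists a retained-intron transcript of 2089 bases. The ratio was 1.56 for Reg3b and 1.07 for Reg1, Reg3a and Reg4. With CPM (counts scaled to library size) divided by the length of the coding transcript in kilobases, a scale chosen after the data were seen, Reg3g stood at 30.1 ± 14.4 CPM per kb in control and 685 ± 440 in EW, there above Reg1 (519.7 ± 145). On the same scale Reg3b was at 129.8 ± 70.9 CPM per kb in control and 3093 ± 1946 in EW. The choice of length does not touch comparisons of 1 gene between groups.

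**Figure D1:**
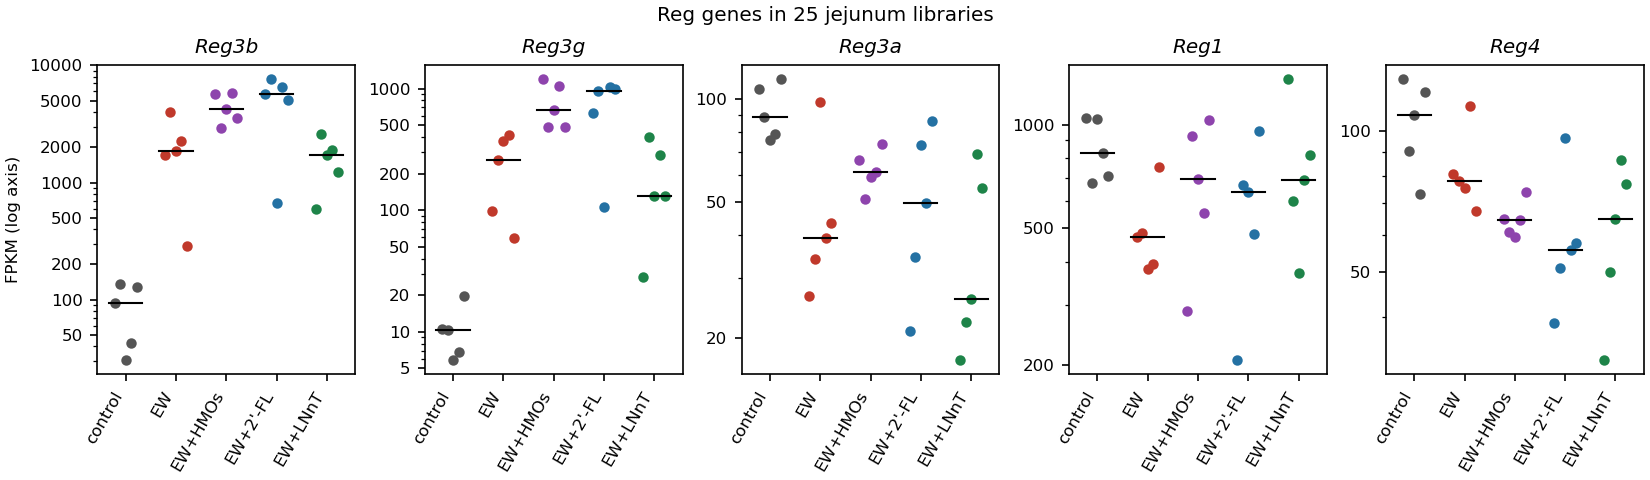
FPKM (log axis) of Reg3b, Reg3g, Reg3a, Reg1 and Reg4 in each of 25 libraries, 5 per group (points in order of replicate number), with the group median as a line. The 20 early-weaned libraries lie above all 5 controls for Reg3b and Reg3g, with Weaned5, FL3 and LNnT1 lowest in their groups, while for Reg3a, Reg1 and Reg4 most early-weaned libraries lie within or below the control range.

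The first comparison asked what early weaning did to the jejunum. For Reg3b, the control libraries 1 to 5 held 94.5, 136, 30.5, 42.4 and 129 FPKM, and the EW libraries 1714, 3973, 1852, 2268 and 287. Every EW library was above every control, with Weaned5 far below the other 4 EW libraries and still above the highest control. In CPM, scaled by TMM, the mean rose from 102 ± 55.5 to 2422 ± 1524 CPM, a log2 change of 4.58 ± 0.64 (estimate ± standard error; 95% interval 3.24 to 5.91; edgeR adjusted p = 0.000778).

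For Reg3g, the controls held 10.5, 10.3, 5.85, 6.85 and 19.7 FPKM, and the EW libraries 97.8, 260, 367, 419 and 59.4. The groups did not overlap, and Weaned5 was again the lowest of its group, followed by Weaned1. The mean rose from 23.2 ± 11.1 to 528 ± 340 CPM, a log2 change of 4.51 ± 0.69 (95% interval 3.08 to 5.94; edgeR adjusted p = 0.00136). Of the 5 members these 2 were called, both higher, against 0.953% of the 22131 genes tested that were called in either direction (0.443% higher). EW libraries lay wholly above the controls for 3.52% of genes. Both calls held without the 6 libraries with pancreatic transcripts, without the 3 libraries apart, with Y-linked transcripts as a covariate, in DESeq2, and when any 1 of the 25 libraries was left out, with log2 changes of 4.13 to 4.86.

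Against the same controls, Reg3b and Reg3g were also called higher in each supplemented group. For Reg3b the EW+HMOs libraries held 5686, 2934, 4218, 5782 and 3551 FPKM. The EW+2'-FL libraries held 5675, 7601, 664, 6597 and 5040 FPKM of it, and the EW+LNnT libraries 595, 2571, 1701, 1895 and 1220. FL3 and LNnT1 were the lowest of their groups, and all 15 supplemented libraries were above all controls. The log2 changes of Reg3b from control were 5.78 ± 0.68 in EW+HMOs (edgeR adjusted p = 5.03e-05), 5.93 ± 0.69 in EW+2'-FL (adjusted p = 4.43e-05) and 4.35 ± 0.64 in EW+LNnT (adjusted p = 0.000874).

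For Reg3g the EW+HMOs libraries held 1194, 481, 664, 1053 and 479.6 FPKM. The EW+2'-FL libraries held 628, 948, 107, 1029.6 and 989 FPKM, and the EW+LNnT libraries 28.0, 401, 132, 283 and 130.3. Here too FL3 and LNnT1 were lowest, and LNnT1 came closest to the controls. The log2 changes of Reg3g from control were 6.28 ± 0.75 in EW+HMOs (edgeR adjusted p = 5.03e-05), 6.16 ± 0.75 in EW+2'-FL (adjusted p = 6.36e-05) and 4.34 ± 0.69 in EW+LNnT (adjusted p = 0.0016). Members called numbered 2 of 5 in EW+HMOs (both higher), 3 in EW+2'-FL (2 higher, 1 lower) and 4 in EW+LNnT (2 higher, 2 lower). Of all genes tested, 1.85% were called in EW+HMOs (0.917% higher), 2.54% in EW+2'-FL (1.07% higher, 1.48% lower) and 10.6% in EW+LNnT (6.68% higher, 3.93% lower). Libraries lay wholly above the controls for 7.9%, 1.98% and 5.37% of genes in these groups. The 4 comparisons share their control libraries and are given side by side, not as repeats of one another.

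**Figure D2:**
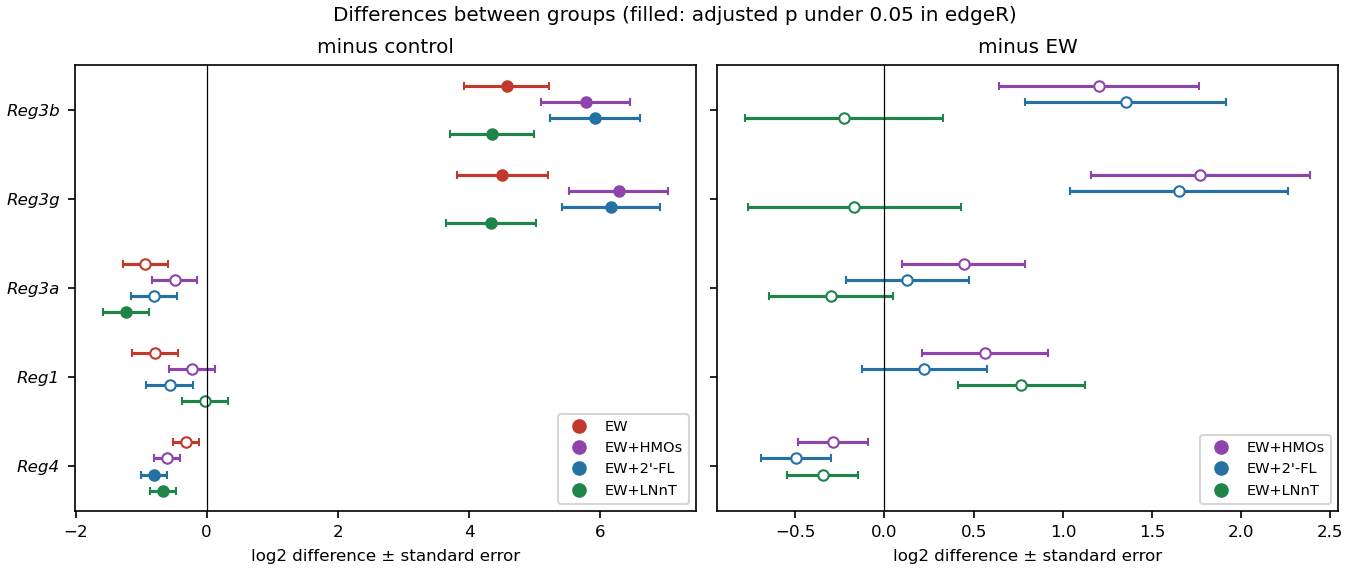
Log2 differences ± standard error for the 5 members, early-weaned groups minus control (left) and supplemented groups minus EW (right), with filled points for edgeR adjusted p under 0.05 and separate horizontal scales. Reg3b and Reg3g are called in all 4 comparisons with control, at 4.34 to 6.28, and no member is called against EW.

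The supplemented groups were then compared with EW, the comparison that bears on the oligosaccharides themselves. In EW+HMOs, mean Reg3g was 1804 ± 768 CPM against 528 ± 340 in EW, and all 5 EW+HMOs libraries were above every EW library. The log2 difference was 1.77 ± 0.62 (95% interval 0.50 to 3.04; unadjusted p = 0.00839; edgeR adjusted p = 1). Groups that did not overlap in that direction were found for 1.38% of genes tested. Mean Reg3b was 5576 ± 1567 CPM against 2422 ± 1524, a log2 difference of 1.20 ± 0.56 (0.04 to 2.37; edgeR adjusted p = 1), with 3 of 5 libraries above the highest EW library.

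In EW+2'-FL, 4 of 5 libraries were above the highest EW library for Reg3g and for Reg3b, and FL3 was not. The log2 differences from EW were 1.65 ± 0.61 for Reg3g (95% interval 0.38 to 2.92; edgeR adjusted p = 0.736) and 1.35 ± 0.56 for Reg3b (0.19 to 2.52; edgeR adjusted p = 0.842). In EW+LNnT the differences were -0.17 ± 0.60 for Reg3g (-1.41 to 1.07; edgeR adjusted p = 0.956) and -0.23 ± 0.55 for Reg3b (-1.37 to 0.92; edgeR adjusted p = 0.934). No member was called in any of the 3 comparisons with EW by edgeR, by DESeq2 or by limma on FPKM. At an unadjusted p under 0.05 edgeR gave 2 members for EW+HMOs, 3 for EW+2'-FL and 1 for EW+LNnT, beside 4.16%, 5.42% and 11.4% of all genes. After adjustment, of all genes tested, edgeR called 0%, 0% and 0.172%, and DESeq2 called 55, 48 and 409 genes in the same comparisons.

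Both oligosaccharides are milk sugars of different structure: 2'-fucosyllactose is lactose carrying a fucose, and lacto-N-neotetraose is an unfucosylated tetrasaccharide built on lactose. Their groups could be compared directly, but the labels give no doses, so it is not known that these were matched. For Reg3g the log2 difference of EW+2'-FL from EW+LNnT was 1.82 ± 0.62 (95% interval 0.55 to 3.09; edgeR adjusted p = 0.451), with means of 1660 ± 874 and 470 ± 390 CPM. For Reg3b it was 1.58 ± 0.57 (0.40 to 2.75; edgeR adjusted p = 0.467), with means of 6185 ± 3147 and 2071 ± 1083 CPM. FL3 lay within or below the EW+LNnT range for both genes, and the other 4 EW+2'-FL libraries lay above every EW+LNnT library. Neither difference passed, and edgeR called 0% of genes between these groups, with 2 of 5 members and 8.51% of genes at an unadjusted p under 0.05, no member called by DESeq2 and none by limma.

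Between EW+HMOs and EW+LNnT the groups did not overlap for either lectin. The log2 differences were 1.94 ± 0.62 for Reg3g (95% interval 0.66 to 3.22; edgeR adjusted p = 0.16) and 1.43 ± 0.57 for Reg3b (0.26 to 2.60; edgeR adjusted p = 0.253). DESeq2 called Reg3g in this comparison (1.94; adjusted p = 0.0255), among 566 genes in all, where edgeR called 92. Groups that did not overlap in that direction were found for 2.42% of genes tested, and 0.416% of genes were called by edgeR. EW+HMOs and EW+2'-FL differed by 0.12 ± 0.60 for Reg3g and -0.15 ± 0.55 for Reg3b, with 95% intervals of -1.12 to 1.35 and -1.30 to 1.00, and 0% of genes were called. The EW+HMOs change was also set against the sum of the changes with each oligosaccharide alone. The departure from that sum was 0.29 ± 0.84 for Reg3g, 0.08 ± 0.78 for Reg3b, 0.62 ± 0.49 for Reg3a, 0.55 ± 0.28 for Reg4 and -0.43 ± 0.50 for Reg1, and none of the 5 was called, with 0.845% of genes tested called.

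Reg3b and Reg3g varied together from library to library. Across the 20 early-weaned libraries the correlation of their log2(CPM + 1) was r = 0.910 (Spearman rho = 0.917; two-sided permutation p = 1e-05 for both, the smallest that 100000 resamples can give; 0.0001 adjusted over the 10 pairs of members). It was 0.917 without Weaned5 and FL3, the 2 libraries farthest from the median of Reg3b, 0.866 after each group was centred on its mean, and 0.911 without FL1, LNnT1 and LNnT2. Values were permuted over the 20 libraries without regard to group, so the p-values include differences between groups. No p-value was computed for the centred correlation. The other 9 pairs of members had r between -0.33 and 0.40 and did not pass. The ratio of Reg3b to Reg3g counts was 2.82 to 7.13 in control, 2.62 to 9.47 in EW, 3.47 to 11.5 in EW+LNnT, 2.75 to 4.88 in EW+2'-FL and 2.57 to 4.00 in EW+HMOs. These ranges overlap, and in EW the ratio was high in Weaned1 and Weaned2 and between 2.62 and 2.92 in the other 3 libraries.

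The sources used here do not give the authors' way of assigning reads shared by related genes. The longest coding transcripts of Reg3b and Reg3g in GENCODE M21 were 74.4% identical over 739 aligned bases. They shared 11 windows of 25 bases, counted at every start position so that windows can overlap, and none of 50. No pair among the 7 Reg genes shared a stretch of 50 bases. Reads of 150 bases, the length given in the labels' protocols, would therefore match 1 of these reference transcripts in full.

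**Figure D3:**
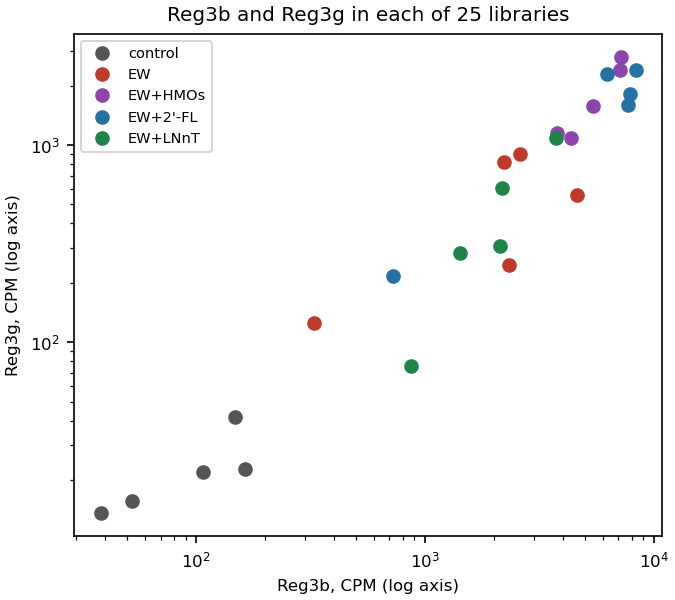
Reg3b against Reg3g in CPM (both axes log) in each of 25 libraries, coloured by group. The 5 controls lie at the lower left, at 38.3 to 163 CPM of Reg3b and 13.6 to 41.7 CPM of Reg3g, and the 20 early-weaned libraries follow one band up to 8340 CPM of Reg3b and 2806 CPM of Reg3g.

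Reg3a, in the same cluster as Reg3b, did not share the rise. The control libraries held 107, 88.3, 75.7, 79.0 and 114 FPKM, and the EW libraries 26.5, 34.0, 98.1, 39.1 and 43.5. Weaned3 was within the control range and the other 4 EW libraries were below it. The log2 change from control to EW was -0.93 ± 0.35 and did not pass (95% interval -1.65 to -0.21; edgeR adjusted p = 0.222).

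The supplemented libraries 1 to 5 held 66.4, 51.0, 59.1, 61.3 and 73.7 FPKM of Reg3a in EW+HMOs. They held 20.9, 34.5, 73.4, 49.6 and 86.0 FPKM in EW+2'-FL and 17.2, 22.3, 26.0, 69.0 and 54.9 in EW+LNnT. All EW+HMOs and EW+LNnT libraries were below the lowest control, as for 8.24% and 5.97% of genes tested. Reg3a fell in EW+LNnT (79.4 ± 10.9 to 33.8 ± 17.1 CPM; log2 change -1.23 ± 0.35; edgeR adjusted p = 0.0275). The call was lost without the libraries with pancreatic transcripts (-0.99; adjusted p = 0.199), without FL1, LNnT1 and LNnT2 (-0.92; adjusted p = 0.122), and without any one of Control1, Control3, Control5, LNnT1, LNnT2 and LNnT3 (-1.08 to -1.28; adjusted p = 0.0558 to 0.0798). The differences from control were -0.49 ± 0.35 in EW+HMOs (edgeR adjusted p = 0.475, and 0.00542 with the 2 groups alone, where 4966 genes were called) and -0.81 ± 0.35 in EW+2'-FL (0.223).

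Reg1, the most abundant member in control, varied widely within groups. Control libraries held 1042, 679, 1041, 827 and 707 FPKM, and EW libraries 471, 484, 381, 393 and 751. Of the 5 EW libraries, 4 were below the lowest control, and Weaned5, the library with least Reg3b and Reg3g in its group, was not. The log2 change was -0.79 ± 0.35 (95% interval -1.52 to -0.06; edgeR adjusted p = 0.312). In a fit of these 2 groups alone it was -0.78 and was called (adjusted p = 0.029), with 1638 genes called in all against 211 with all groups.

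In the supplemented groups Reg1 ranged from 289 to 1028 FPKM in EW+HMOs, 207 to 955 in EW+2'-FL and 370.2 to 1353 in EW+LNnT, all overlapping the controls. The differences from control were -0.22 ± 0.35, -0.57 ± 0.35 and -0.02 ± 0.35 in that order, and those from EW 0.57 ± 0.35, 0.22 ± 0.35 and 0.77 ± 0.35. None was called. The highest Reg1 value of the study was in LNnT1, the library with the largest share of pancreatic transcripts. Over the 6 libraries with such transcripts Reg1 ran from 471 to 1353 FPKM, and over the other 19 from 207 to 1042; the part of pancreatic RNA in Reg1 was not tested.

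**Figure D4:**
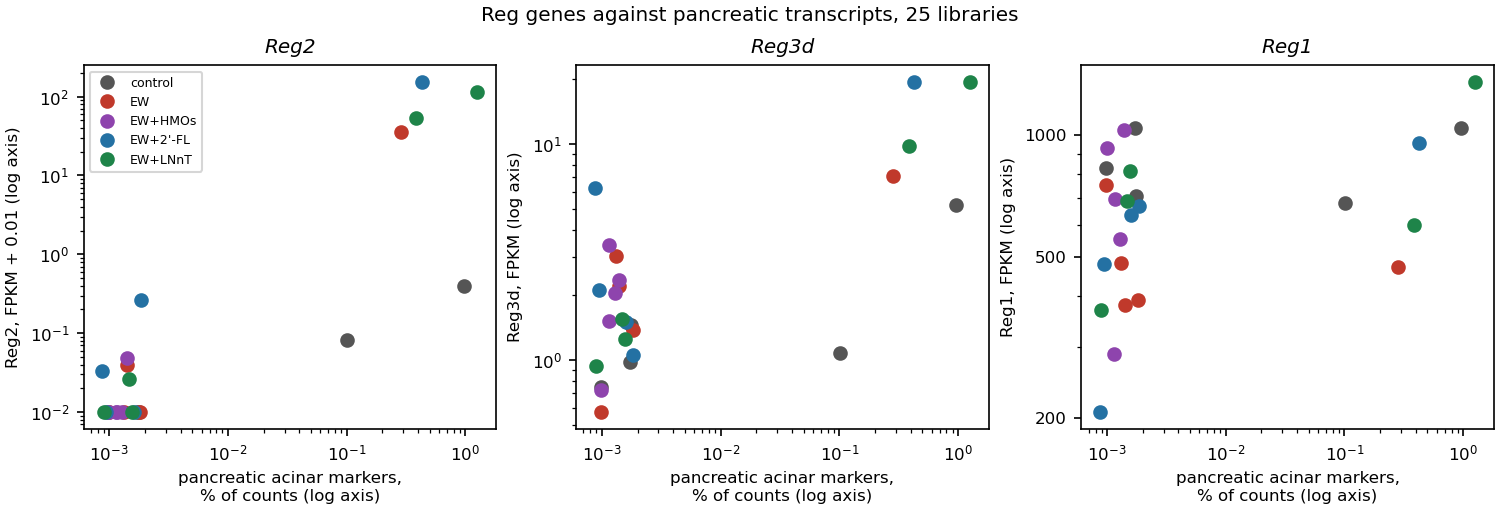
FPKM of Reg2, Reg3d and Reg1 (log axes; 0.01 added for Reg2) against the share of counts taken by 14 pancreatic acinar markers (log axis) in each of 25 libraries, coloured by group. Reg2 reached 35.6 to 154 FPKM in Weaned1, FL5, LNnT1 and LNnT2 and was at most 0.385 FPKM in every other library, while Reg1 was at 207 to 1042 FPKM in the libraries without pancreatic transcripts.

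Reg4 was the steadiest member, with a 3.98-fold range over all 25 libraries against 249-fold for Reg3b and 204-fold for Reg3g in FPKM. Control libraries held 129, 90.5, 108, 73.4 and 121 FPKM, and EW libraries 80.9, 78.1, 75.4, 113 and 67.4. The groups overlapped, with a log2 change of -0.31 ± 0.20 (95% interval -0.72 to 0.09; edgeR adjusted p = 0.503). EW+HMOs libraries held 65.0, 60.8, 59.4, 64.6 and 74.0 FPKM, a narrow range that overlapped the controls in HMOs5. In CPM all 5 lay below the controls, as for 8.24% of genes tested, with HMOs5 at 80.8 CPM and Control4 at 81.0 CPM. The log2 change was -0.60 ± 0.20 (edgeR adjusted p = 0.103). With the 2 groups alone, this difference was called (adjusted p = 0.0029), and without FL1, LNnT1 and LNnT2 as well (adjusted p = 0.0287), in fits that called 4966 and 1772 genes in all, against 410 with all libraries.

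EW+2'-FL libraries held 38.9, 50.8, 96.4, 55.6 and 57.5 FPKM of Reg4, and EW+LNnT libraries 32.4, 49.9, 64.8, 86.7 and 77.2. Only FL3 in the former and LNnT4 in the latter overlapped the control CPM range. Reg4 fell in EW+2'-FL (111 ± 20.7 to 63.2 ± 19.3 CPM; log2 change -0.81 ± 0.20; edgeR adjusted p = 0.0269) and in EW+LNnT (to 69.96 ± 17.97 CPM; -0.66 ± 0.20; adjusted p = 0.0338). The first call was lost without the pancreatic libraries (-0.83; adjusted p = 0.0742), with the 2 groups alone (-0.80; 0.117), in limma (-0.83 and -0.84; 0.056 and 0.0584) and without any one of Control1, Control3, Control5, FL1 and FL5 (-0.72 to -0.81; 0.0509 to 0.0823). The second was lost without the pancreatic libraries (-0.47; 0.31), without FL1, LNnT1 and LNnT2 (-0.47; 0.141), with the 2 groups alone (-0.65; 0.0624) and without any one of Control1, Control3, Control5, LNnT1 and LNnT2 (-0.53 to -0.64; 0.079 to 0.0983). Enteroendocrine markers, 10 genes such as Chga and Chgb, summed to 0.0366% to 0.0524% of counts in control, 0.0286% to 0.0557% in EW, 0.0252% to 0.0478% in EW+LNnT, 0.023% to 0.0524% in EW+2'-FL and 0.0242% to 0.0331% in EW+HMOs, and their part in the Reg4 values was not tested.

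Sex-linked transcripts differed between control and early-weaned libraries, so the lectins were also read in libraries with Xist and almost no Y-linked transcripts. Reg3b ran from 595 to 7601 FPKM in the 7 early-weaned libraries of this kind and from 30.5 to 129 FPKM in the 4 controls. Reg3g ran from 28.0 to 1053 FPKM and from 5.85 to 19.7 FPKM. Neither pair of ranges overlapped, and the share of all genes that separate in these libraries is not given here. The 13 early-weaned libraries with Y-linked transcripts and almost no Xist spanned 287 to 6597 FPKM of Reg3b, and no control was of that kind.

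Genes with a pattern most like each member were ranked by Spearman's rho of CPM over the 25 libraries, among 13455 genes, as a description without a test. Gcnt3, which builds branched O-glycans of mucins, came first for both Reg3b (rho = 0.81) and Reg3g (0.88), and its CPM means ran from 21.0 in control to 37.2 in EW, 33.3 in EW+LNnT, 47.3 in EW+2'-FL and 60.8 in EW+HMOs. Next for both were Ltf, the iron-binding antimicrobial protein lactoferrin (0.81 and 0.82), and Cpn2, the regulatory subunit of carboxypeptidase N (0.80 and 0.80). Tifa, an adaptor in the sensing of bacterial sugar metabolites (0.78), and Zdhhc15 (0.78) completed the first 5 for Reg3b, and Zdhhc15 (0.80) and the serine protease Prss32 (0.79) those for Reg3g. Within the 20 early-weaned libraries these values were 0.61 to 0.77. Among the other members, Reg1 was most like the calcium channel Trpv6 (0.83), the glutathione transferase Gsta4 (0.82) and the iron transporter Slc11a2 (0.80). Akp3 (0.77) and Otop3 (0.74) followed. Reg4 was most like Supt3 (0.83), Lyrm7 (0.82), Paqr7 (0.79), Acat1 (0.79) and Ccdc90b (0.77). The points share their libraries and depths, and groups differ in level, so a high rho here includes the group differences.

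The signals known to drive Reg3b and Reg3g were read from 4 lists. Of 25 genes of interleukin-22, interleukin-6 and interleukin-17 signalling through STAT3, 20 were tested. None was called between EW and control by edgeR or DESeq2, and 1 had an unadjusted p under 0.05 (median log2 change 0.15, against 0.02 over all genes tested). Of all genes tested, edgeR called 0.953% in this comparison, so none called among 20 says little about these signals. The share of all genes at an unadjusted p under 0.05 is not given for it. Stat3 changed by 0.26 ± 0.20 (edgeR adjusted p = 0.617), its feedback inhibitor Socs3 by 0.78 ± 0.41 (0.40), the receptor subunit Il22ra1 by 0.54 ± 0.47 (0.656) and Extl3, described as a receptor for Reg proteins, by -0.07 ± 0.13 (0.849). Il22 itself was below the filter, with at most 4 counts in a library and counts in 4 libraries, and Il6 had at most 13. At this depth a change in either was not detectable. Il17a was not analysed here.

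Of 21 genes that sense microbes, such as the Toll-like receptors and Nod2, all were tested and none was called between EW and control by edgeR or DESeq2, with 1 at an unadjusted p under 0.05 (median 0.10). Beside 0.953% of all genes called by edgeR, none called among 21 again says little. Their shared adaptor Myd88 changed by -0.11 ± 0.15 (edgeR adjusted p = 0.799). In EW+LNnT against control genes called higher included Il17ra, Jak2, Jak1 and Socs3 (1.36 ± 0.41; edgeR adjusted p = 0.036) of the first list and Nfkbia, Traf6 and Irak1 of the second, where 10.6% of all genes were called.

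Among 22 epithelial genes known to be induced by interleukin-22 or STAT3, 20 were tested and 3 rose in EW, with a median log2 change of 0.80. Of all genes tested, 0.443% were called higher in EW. Tifa rose from 12.5 ± 1.01 to 37.4 ± 11.6 CPM (1.58 ± 0.31; edgeR adjusted p = 0.0133). Pla2g2a, a secreted phospholipase that attacks bacterial membranes, rose from 4.81 ± 1.56 to 14.3 ± 5.36 CPM (1.57 ± 0.26; 0.00242), and the metalloreductase Steap4 from 0.542 ± 0.181 to 2.33 ± 1.23 CPM (2.102 ± 0.473; 0.0299). DESeq2 called 4. Each supplemented group had 4 of the 20 called higher against control, Tifa, Pla2g2a and Retnlb in all 3, joined by Ubd (EW+HMOs), Steap4 (EW+2'-FL) or Socs3 (EW+LNnT). Of all genes tested, 0.917%, 1.07% and 6.68% were called higher in those groups.

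Of 18 other antimicrobial genes, which share Pla2g2a and Retnlb with the previous list, Pla2g2a and the defensin Defa22 (1.57 ± 0.35; edgeR adjusted p = 0.027) rose in EW and the pentraxin Mptx1 fell (-2.99 ± 0.30; 7.5e-06). In EW 0.953% of all genes tested were called in either direction (0.443% higher). Retnlb, a goblet cell protein that acts on bacteria, had no count in any control library and 0.141 to 1.64 CPM in EW (edgeR adjusted p = 0.0565). Against EW, no gene of the 4 lists was called by edgeR in any supplemented group, with 0 to 5 genes per list at an unadjusted p under 0.05, and DESeq2 called 1 gene of the first list for EW+2'-FL and 1 for EW+LNnT.

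**Figure D5:**
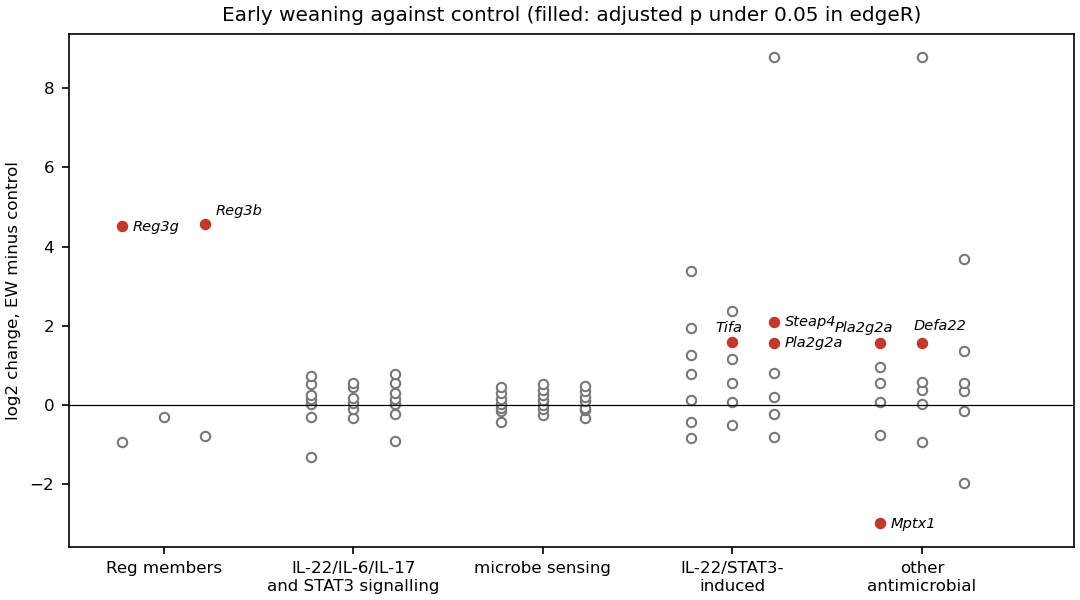
Log2 change from control to EW for the 5 members and for the genes tested in 4 lists, with filled and named points for edgeR adjusted p under 0.05. Reg3b and Reg3g lie at 4.58 and 4.51, the called genes Steap4, Tifa, Pla2g2a and Defa22 at 1.57 to 2.102 and Mptx1 at -2.99; the open point at 8.79 in both right-hand lists is Retnlb, a fitted value for a gene with no count in control that does not measure a size.

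Markers of cells that make or could carry these transcripts were read beside the lectins. The 11 Paneth cell markers summed to 0.128% to 0.295% of counts in control, 0.299% to 0.408% in EW, 0.18% to 0.431% in EW+LNnT, 0.281% to 0.807% in EW+2'-FL and 0.298% to 0.391% in EW+HMOs. In EW 3 of the 11 rose (Mmp7, and Pla2g2a and Defa22 of the lists above), with a median log2 change of 0.56. Enterocyte markers summed to 4.36% to 5.45% in control and 4.36% to 8.82% in EW, and none of the supplemented libraries left the range of 3.51% to 6.18%. The 9 goblet cell markers summed to 0.3996% to 0.572% in control, 0.234% to 0.599% in EW, 0.17% to 0.596% in EW+LNnT and 0.149% to 0.586% in EW+HMOs. In EW+2'-FL they summed to 0.184% to 0.283%, below every control, and 1 of the 9 was called, lower (median log2 change -1.02). In EW+LNnT 1 of the 9 was also called lower (median -0.49). Reg4 was called lower in both of these groups, where 1.48% and 3.93% of all genes tested were called lower. In EW, with the same median of -0.49, and in EW+HMOs (-0.29) none of the 9 was called, nor was Reg4. Of the 10 enteroendocrine markers 1 was called lower in each supplemented group and none in EW. In EW+HMOs 1.85% of all genes were called in either direction. Red cell markers (6 genes, mainly globins) summed to 0.0488% to 0.0922% in control and 0.0683% to 0.324% in EW. They summed to 0.0464% to 0.0872% in EW+LNnT, 0.0267% to 0.0901% in EW+2'-FL and 0.0221% to 0.0484% in EW+HMOs, the last below every EW library. Against EW, edgeR called none of the 6 in EW+HMOs or EW+2'-FL (6 and 5 at an unadjusted p under 0.05). DESeq2 called 5 in each, the comparisons in which Reg3b and Reg3g had higher means. Red cell markers also lay lower with LNnT alone (median log2 difference from EW -1.11, 5 of 6 at an unadjusted p under 0.05). Neither edgeR nor DESeq2 called any of them there, and mean Reg3b and Reg3g were not above EW. Of lymphoid markers, the T-cell receptor genes Cd3e, Cd3g, Trac and Trdc, chosen after the values were seen, summed to at most 0.00159% in any library, with ranges of 0.00081% to 0.00124% in control and 0.000392% to 0.00101% in EW. They summed to 0.000831% to 0.00159% in EW+HMOs, 8.25e-05% to 0.00111% in EW+2'-FL and 4.77e-05% to 0.00146% in EW+LNnT. These 4 genes are part of a longer lymphoid list and do not stand for lymphoid content as a whole. Neutrophil markers (8 genes) summed to 0.00135% at most in any library, with at most 7 counts of Mpo and 3 of Elane. The part of Paneth cell, enterocyte, goblet, red cell and lymphoid content in the Reg values was not tested.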

How the data were processed

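Jejunal poly(A) RNA was sequenced in 25 strand-specific libraries, per the labels' protocols. The tools named in the submitters' processing notes, with no role or order, are HISAT2 2.2.1, StringTie 2.1.6, cutadapt 1.9, edgeR and DESeq2, and the build is GRCm39. The deposited counts are whole numbers of reads per Ensembl gene, and the deposited FPKM are the authors' values per kilobase of gene, scaled to library size. Counts were used for the main tests and FPKM for levels between genes.

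After TMM scaling, edgeR 4.0.16 (R 4.3.3) fitted its quasi-likelihood model, with robust dispersions, to all 25 libraries with 1 mean per group, after filterByExpr by group left 22131 genes, all 5 members among them. The 10 pairs of groups and an interaction contrast were tested, with Benjamini-Hochberg adjustment over all genes tested and a threshold of 0.05. Standard errors were derived from the F statistic, and intervals are 95%. CPM are TMM-scaled, except in shares of counts. The code was tested on simulated data. Alternatives were relative log expression scaling, no filter, the replicate number as a block, DESeq2 1.42.0, limma 3.58.1 on log2(FPKM + 1) and log2(FPKM + 0.1), a covariate of Y-linked transcripts, only the groups compared, and sets of libraries left out, including those with over 0.02% pancreatic transcripts. Members of a list were counted, without a set test.

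Groups were not paired. Members, lists and tests were chosen with earlier results of these data known. All 5 members were printed. From the 4 pathway lists, up to 4 called genes by smallest p in EW against control or against EW were printed. Il22, Stat3, Socs3, Myd88, Il22ra1 and Extl3 were printed in any case. So were the 5 genes nearest in rank to each of Reg3b, Reg3g, Reg1 and Reg4, and Reg3a was not ranked. Genes called in supplemented groups against control, Il6, Retnlb, Mmp7, Mpo, Elane and the T-cell receptor genes were named after their values were seen. Promoters came from RefSeq tables, and all 7 Reg genes matched by symbol; transcripts came from GENCODE M21. A further lymphoid list is not reported here.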

Additional observations from a re-analysis of the deposited data

Results flagged for a closer look

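In 25 sets of 5 libraries (5 members in 5 groups), the lowest or highest library was set against the others of its group, and 2 stood far apart; chance alone would mark about 1 set in 20. Reg3b in FL3 was 729 CPM, where the other 4 EW+2'-FL libraries held 6267 to 8340 CPM, a gap of 0.728 of the group's range. FL3 was also lowest in its group for Reg3g, at 216 CPM. Reg3a in Weaned3 was 85.1 CPM, where the other 4 EW libraries held 26.0 to 35.7 CPM, a gap of 0.837 of the range.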

How the results depend on the processing

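For Reg3b and Reg3g, the rises from control in all 4 early-weaned groups kept their direction and their call in every alternative run, with log2 changes in EW of 4.35 to 4.60 and 4.13 to 4.66 across settings and 4.21 to 4.86 and 4.24 to 4.83 when 1 library was left out. With the replicate block they were 4.52 and 4.46 in EW, and the block changed no member's call; same-numbered libraries had a median correlation of 0.025 over 50 pairs, 11 of them above 0.1, and 3 of 25 libraries correlated best with their own number, so the numbers were not taken as pairs. Members called against control in EW+LNnT went from 4 to 2 without the pancreatic libraries and without FL1, LNnT1 and LNnT2 (all genes from 2348 to 300 and 1474), and ran from 2 to 4 when 1 library was left out; in EW+HMOs they went from 2 to 4 with only the groups compared (all genes from 410 to 4966). Between EW+HMOs and EW+LNnT DESeq2 called 1 member, Reg3g, where edgeR called 0 (all genes 566 and 92).

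Small uncalled differences changed sign, and the cause was not tested. Reg1 in EW+LNnT minus control (-0.02) became 0.015 with relative log expression scaling and 0.0069 in DESeq2. Reg3b in EW+HMOs minus EW+2'-FL (-0.15) became 0.0042 with the replicate block and 0.12 in limma at either pseudocount (0.1198 and 0.1201). Without the pancreatic libraries, Reg1 and Reg3a in EW+2'-FL minus EW became -0.038 and -0.28, Reg1 and Reg4 in EW+HMOs minus EW+LNnT 0.26 and -0.14, Reg3a in EW+2'-FL minus EW+LNnT -0.18, and the departure of Reg1 from the sum of the single changes 0.30. Without FL1, LNnT1 and LNnT2, Reg3a in EW+LNnT minus EW became 0.0199, Reg1 and Reg4 in EW+HMOs minus EW+LNnT 0.263 and -0.142, and Reg1 in EW+2'-FL minus EW+LNnT 0.11. When 1 library was left out, the ranges that crossed 0 were, for EW+LNnT minus EW, -0.55 to 0.14 for Reg3b, -0.74 to 0.10 for Reg3g and -0.58 to 0.14 for Reg3a. For EW+2'-FL minus EW they were -0.0605 to 0.42 for Reg1 and -0.15 to 0.57 for Reg3a. For EW+HMOs minus EW+LNnT they were -0.38 to 0.19 for Reg1 and -0.0787 to 0.16 for Reg4, for EW+HMOs minus EW+2'-FL -0.16 to 0.29 for Reg3g, for EW+LNnT minus control -0.41 to 0.16 for Reg1, and for the departure of Reg3b from the sum -0.29 to 0.40. Of the log2 changes under other settings, 516 kept direction and call, 15 changed sign, 9 lost and 5 gained a call; when 1 library was left out, 1335 kept both, 24 changed sign and 16 lost a call. Levels per kb of coding transcript moved by more than the SD of the FPKM in 9 of 25 cases, 8 of them Reg3b or Reg3g and 1 Reg4 in EW+HMOs.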

Other observations

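Reg2, a Reg gene known from the pancreas, was counted 13975 times in FL5, 6888 times in LNnT1, 4453 times in LNnT2 and 2533 times in Weaned1, with at most 31 counts elsewhere. Pancreatic acinar markers were present in those 4 libraries and also in 2 controls, but the amount of Reg2 beside them differed. Per 1000 counts of the 14 acinar markers, FL5, LNnT1, LNnT2 and Weaned1 held 36.5, 9.32, 14.1 and 12.9 counts of Reg2, and Control2 and Control3 held 0.0807 and 0.0425. Reg3d, which lies between Reg3b and Reg3a, was counted in every library, 41 to 367 times in the 19 without pancreatic transcripts. It was counted 1439 times in FL5, 959 in LNnT1, 673 in LNnT2, 414 in Weaned1 and 334 in Control3, while the 79 counts in Control2 lay among those of the other 3 controls (52 to 86). These libraries were chosen for their pancreatic transcripts after the values were seen, number 4 and 2, and were not compared by a test.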
